A study of Homo sapiens with 12 samples.

Results

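ARID1A was silenced with small interfering RNA in A549 cells labelled as YTHDF1 knockout, and the response is described here across all genes that passed an expression filter. A549 is an established human lung adenocarcinoma line. The comparison uses 6 of the 12 RNA sequencing libraries of the series: 3 from YTHDF1 knockout cells (called YTHDF1 KO) and 3 from YTHDF1 knockout cells with ARID1A silencing (genotype YTHDF1-KO with si-ARID1A, called the combined group). Every library of both groups carries the YTHDF1 change, so the groups differ by label in ARID1A silencing alone. The other 6 libraries, 3 of unmodified cells (WT) and 3 of cells with ARID1A silencing and intact YTHDF1 (siARID1A), give the same silencing step in another background. The sample titles call the YTHDF1 change a knockdown where the genotype field calls it a knockout. Whether the cells were a clone or a pool is not labelled, and no label names a control small interfering RNA for the unsilenced groups. Effects of transfection itself and of ARID1A loss therefore cannot be told apart, for the interferon genes or any gene below. Changes with silencing are meant in this sense throughout. The titles number the libraries of a group as biological replicates without saying whether they came from separate cultures, so the p-values measure only the spread between these libraries.

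ARID1A is the DNA-binding subunit of the BAF form of the SWI/SNF complex, which uses ATP to move or evict nucleosomes at enhancers and promoters, and its gene is often inactivated in carcinomas. YTHDF1 is a reader protein that binds N6-methyladenosine, a methyl mark on RNA, and is best known for effects on the translation and turnover of marked transcripts. The series title ties YTHDF1 to R-loops, which are RNA-DNA hybrids with a displaced DNA strand, and to innate immunity. Cytosolic nucleic acids are sensed by RIG-I-like receptors and by the cGAS-STING pathway. These sensors switch on interferon genes, and secreted interferon then acts through its receptor and STAT factors to induce interferon-stimulated genes.

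Totals in the 6 libraries ran from 30220717 to 41396019 counts, TMM scaling factors from 1.0043 to 1.0554, and the share of counts on mitochondrially encoded genes from 6.906% to 7.746%. In the first 3 principal components, which held 41.5%, 25.5% and 6.82% of the variance, libraries grouped by label. WT replicate 2 stood apart within its group (4.849% mitochondrial counts). It belongs to neither group of the comparison but enters the shared estimate of the spread. The labelled cell line was checked against its markers: KRT8, KRT18, ALDH1A1, NQO1, TXNRD1 and AKR1B10 were abundant, CDKN2A, which A549 cells have lost, had 0 counts in all 6 libraries, while KRT19 (0.0362 CPM in YTHDF1 KO and 0.0887 in the combined group) and EPCAM (0.784 and 1.66 CPM) were nearly absent. Some A549 markers stood below WT. AKR1B10 averaged 346 CPM in both compared groups against 2215 to 2834 CPM in the WT libraries. KRT8 averaged 1483 CPM in YTHDF1 KO and 1804 in the combined group against 4093 to 5308 in WT. KRT18 and AKR1C2 were also below WT in both groups, while NQO1 and TXNRD1 were above it. Of 28 genes that mark blood, stroma and further non-epithelial types, PTPRC, CD3E and HBB were at or near 0, but not every member was. COL3A1 stood at 5.87 CPM in YTHDF1 KO and 5.78 in the combined group, against 0.0884 to 0.2825 CPM in the WT libraries. PECAM1 stood at 0.213 and 0.537 CPM in the 2 compared groups. The summed level of the list, most of it COL1A1 (34.4 and 28.8 CPM), was 46.8 to 52.3 CPM in YTHDF1 KO and 43.2 to 59.7 CPM in the combined group. CPM are counts scaled to a common depth with TMM factors. Of the 9 members of this marker list tested, 1, ACTA2, was higher (log2 0.998), none was lower by edgeR (0 also at an unadjusted p under 0.05 and by DESeq2), and their part in the results was not tested.

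The transcript of the silenced gene was lower in every library labelled for it. ARID1A (ENSG00000117713, chromosome 1, 26693236 to 26782110, GRCh38) stood at 174, 154 and 153 CPM in YTHDF1 KO replicates 1 to 3 and at 46.7, 58.3 and 57.6 CPM in the combined group. The groups did not overlap, and ARID1A fell by 1.57 on the log2 scale (SE 0.12, adjusted p = 1.7e-12, edgeR quasi-likelihood test with Benjamini-Hochberg adjustment over all genes tested, as for every adjusted p below). The remaining transcript in the combined group was 54.2 ± 6.5 CPM (SD, n = 3), against 42.5 ± 2.12 CPM where YTHDF1 was intact. In that background ARID1A fell by 1.95, and the difference between the log2 changes was 0.38 (adjusted p = 0.0278), so silencing reduced the transcript less in the knockout. Wherever the 2 backgrounds are compared below, the degree of silencing and YTHDF1 status cannot be told apart. In bulk RNA, fewer cells with a transcript and less of it per cell cannot be told apart, here and for every gene below.

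YTHDF1 (ENSG00000149658, chromosome 20, 63195429 to 63216234) was low in both groups, at 26.7, 25.2 and 22.6 CPM in YTHDF1 KO and 32.2, 30.4 and 30.2 CPM in the combined group, against 88.2, 90.7 and 85.5 CPM in WT. A transcript at this level in a labelled knockout shows only that RNA of the locus remained; protein was not measured. With silencing it rose slightly, by 0.31 (SE 0.076, adjusted p = 0.00323), and stayed far below WT. The close relatives did not pass the test: ARID1B, the alternative BAF subunit, changed by -0.08, ARID2, a subunit of the related PBAF complex, by 0.02, and the readers YTHDF2 and YTHDF3 by -0.08 and 0.10. The sign of the ARID2 value depends on the libraries, and it was -0.03 without YTHDF1 KO replicate 2 and -0.06 without combined replicate 3.

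**Figure D1:**
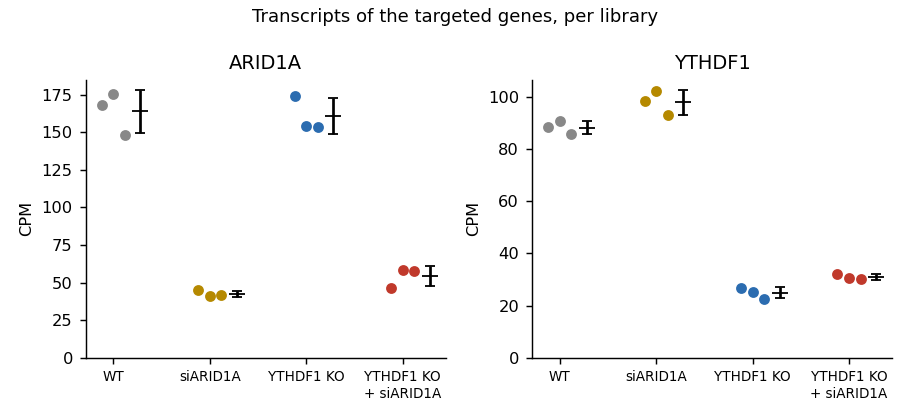
Transcript levels of ARID1A (left) and YTHDF1 (right) in CPM on axes that start at 0, with 1 point per library and bars for the mean ± SD of each group of 3. ARID1A lies between 46.7 and 58.3 CPM in the combined group against 153 to 174 CPM in YTHDF1 KO, and YTHDF1 is low in both knockout groups.

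Between the combined group and YTHDF1 KO, 4331 of the 18524 genes tested (23.4%) differed at an adjusted p under 0.05. Of these, 2315 (12.5% of genes tested) were higher in the combined group and 2016 (10.9%) lower. Large changes were mostly rises: 636 genes (3.43%) rose by more than 1 on the log2 scale, and 154 (0.831%) fell by more than 1. The median change over all genes tested was 0.01. The libraries of the groups did not overlap for 8092 genes (43.7%). Of the protein-coding genes tested, 2095 of 14048 were higher and 1865 lower. Of the long noncoding RNAs tested, 152 of 2765 were higher and 110 lower. The count of lower genes was 1303 without combined replicate 1, and 1465 to 1766 without any other 1 of the 6 libraries. Scaling by library totals alone, in place of TMM, called 2583 genes higher and 1487 lower, so 63.5% of the calls were rises against 53.5% with TMM. That scaling shifted the median of all genes by 0.04.

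**Figure D2:**
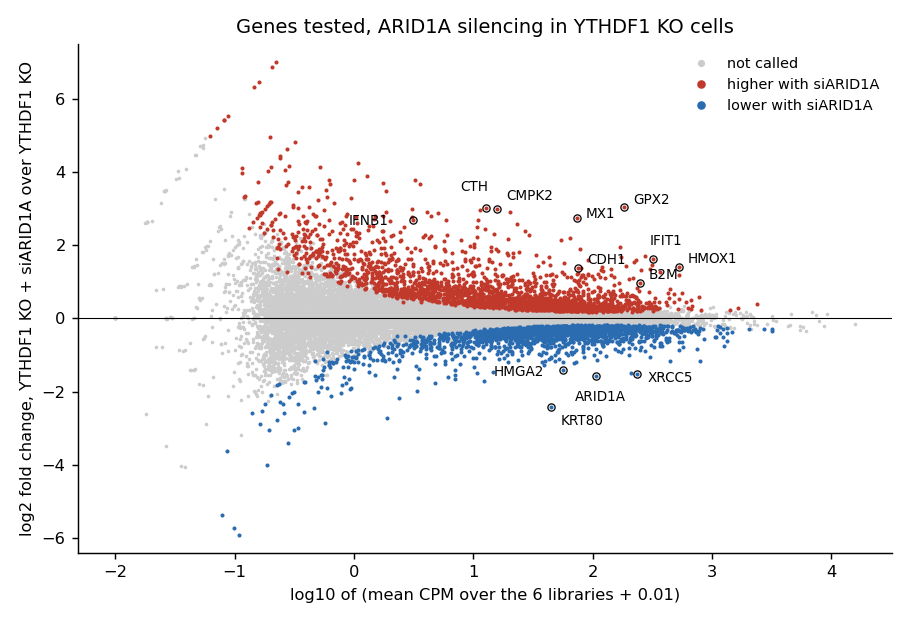
Log2 fold change of the combined group over YTHDF1 KO against log10 of the mean CPM over the 6 libraries plus 0.01, 1 point per gene of the 18524 tested, with genes called higher in red, called lower in blue and the others in grey. Large rises outnumber large falls, with GPX2, MX1, CMPK2 and CTH near 3 and KRT80 at -2.42.

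Lists of genes were compared with these background shares, and no list was tested as a set. Shares of list members called, as given below, stand against 23.4% of all genes tested. Counts of higher and lower members stand against 12.5% and 10.9%. The complexes of the targeted genes held calls at about the share of all genes (23.4%). Of 27 SWI/SNF subunits tested, 2 rose and 6 fell, ARID1A among them (29.6% called), with a median change of -0.12. The catalytic ATPase SMARCA4 rose by 0.48 (adjusted p = 0.0027) and DPF2, a histone-reading BAF subunit, by 0.31 (adjusted p = 0.00288), while PBRM1, the bromodomain subunit of PBAF, fell by 0.33 on the log2 scale (adjusted p = 0.00181). SMARCA4 stood at 27.6, 24 and 24.8 CPM in YTHDF1 KO and 36.4, 31.2 and 38.7 CPM in the combined group, without overlap. Of 25 writers, erasers and readers of N6-methyladenosine, 2 rose, YTHDF1 and FMR1 (log2 0.37), and 4 fell (24% called), with a median of -0.08. Those that fell included IGF2BP2, a reader that stabilises its targets (-0.39), and ALKBH5, a demethylase (-0.28). ZC3H13 (-0.21) and HNRNPA2B1 (-0.19), named after their values were seen, were the others. The number of falls in these lists depended on the libraries and the fit: 3 SWI/SNF subunits fell without YTHDF1 KO replicate 3 or without combined replicate 1, and 2 methylation genes fell without YTHDF1 KO replicate 1 or 3 or combined replicate 1, 1 without combined replicate 2 (IGF2BP2 not among them) and 7 without WT replicate 2. Scaling by library totals gave 3 and 2 falls, and a fit of the 6 libraries alone 10 and 9.

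The clearest common change was in the interferon pathway. IFNB1, which encodes interferon beta, had 24, 42 and 30 counts in YTHDF1 KO and 209, 210 and 190 in the combined group. It rose from 0.828 to 5.42 CPM, a log2 change of 2.699 (SE 0.24, adjusted p = 4.8e-07), with no overlap. In WT and siARID1A it had 0 counts in all 6 libraries, where 0 allows up to 3 counts over a group, and the interaction did not pass the test (adjusted p = 1) with 0 counts in both other groups.

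Of 29 genes of nucleic acid sensing and interferon induction tested, 13 rose and 4 fell (58.6% called). The median change was 0.22 against 0.01 for all genes. Among the cytosolic RNA sensors, IFIH1, which encodes MDA5, went from 28.9, 30.0 and 30.6 CPM to 95.5, 77.4 and 84.5 CPM (log2 1.52, SE 0.091, adjusted p = 2.59e-10). RIGI, the founding RIG-I-like receptor, went from 65.3, 71 and 75.2 CPM to 179, 164 and 179 CPM (log2 1.30, SE 0.072). TLR3, the endosomal receptor for double-stranded RNA, rose by 1.98 from 1.94 CPM. On the DNA side, IFI16, a nuclear DNA sensor, rose by 1.603, and STING1, the adaptor downstream of cGAS, went from 1.67, 1.35 and 1.09 CPM to 4.95, 3.61 and 4.23 CPM (log2 1.63, adjusted p = 0.000156). None of these 5 genes overlapped between the groups, which was so for 43.7% of all genes tested. CGAS itself was close to undetected, with 4, 0 and 8 counts in YTHDF1 KO and 4, 2 and 4 in the combined group, and its fitted change (-0.25, adjusted p = 0.899) has no stable sign. The 4 members that fell, named after their values were seen, were JAK1, a kinase of the interferon receptors (-0.67), TRAF3 (-0.37), IKBKE (-0.31) and RNASEH2B (-0.31), and 2 fell without combined replicate 3. The list's median was 0.55 without YTHDF1 KO replicate 3.

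Interferon-stimulated genes were higher in 53 of 55 cases tested (96.4% against 12.5% of all genes) and 0 lower by edgeR, with 0 lower also at an unadjusted p under 0.05 and by DESeq2, and the median change was 1.36. TRIM25 and GBP2, named after their values were seen, were the 2 not called (-0.11 and 0.34). MX1, an antiviral GTPase, stood at 19.8, 18.7 and 18.8 CPM in YTHDF1 KO and 131, 119 and 136 CPM in the combined group, a log2 change of 2.75 (SE 0.062, adjusted p = 1.2e-09). IFIT1, which binds foreign RNA ends, stood at 159, 157 and 161 CPM and 511, 458 and 492 CPM (log2 1.62, SE 0.047, adjusted p = 8.18e-13). Both genes separated the groups in every library, as did 43.7% of all genes tested. ISG15, a ubiquitin-like modifier, went from 81.6, 80.2 and 80.1 CPM to 190.3, 169.6 and 158 CPM (log2 1.10). OAS2, an oligoadenylate synthetase that activates RNase L, rose by 2.20 from 23 to 105 CPM, and OASL, its catalytically inactive relative, by 1.44. IFI27 rose by 2.28, IFI44L by 2.31, TRIM22, an antiviral TRIM protein, by 2.504, and CMPK2, a mitochondrial nucleotide kinase, by 2.996.

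Levels in all 4 groups are given for MX1 and IFIT1. MX1 averaged 0.251 ± 0.272 CPM in WT, 7.27 ± 1.44 in siARID1A, 19.1 ± 0.595 in YTHDF1 KO and 129 ± 8.54 in the combined group (SD, n = 3). IFIT1 averaged 1.9 ± 0.201, 12.2 ± 2.07, 159 ± 1.81 and 487 ± 26.8 CPM in the same order. For both genes the knockout alone was above the silenced group, and the combined group was highest. The log2 rise with silencing was smaller in the knockout than in WT for MX1 (difference -2.26, adjusted p = 0.000859), IFIT1 (-1.08, adjusted p = 1.36e-05) and OAS2 (-2.32, adjusted p = 0.00498). It was larger in the knockout for TRIM22 (2.25, adjusted p = 7.58e-07) and RIGI (1.06, adjusted p = 1.6e-06). Over the list, 17 members had a larger and 11 a smaller log2 response in the knockout, against 8.87% and 8.22% of all genes. In WT, 40 members were higher and 1 lower with silencing, with a median of 1.13.

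**Figure D3:**
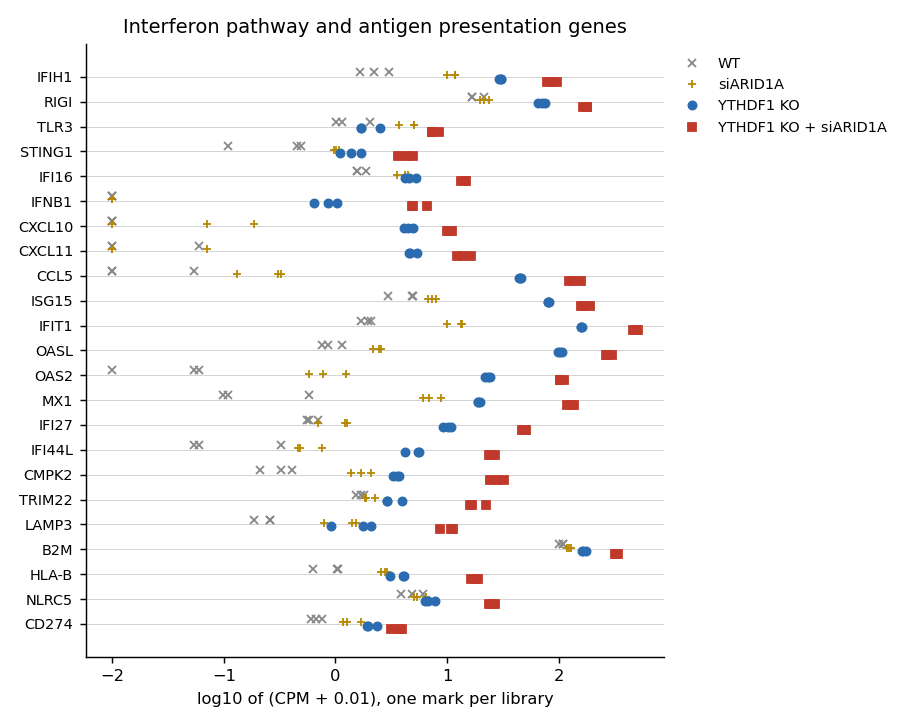
Levels of 23 genes of RNA and DNA sensing, interferon response and antigen presentation as log10 of CPM plus 0.01, with 1 mark per library and 4 groups of 3. The squares of the combined group lie to the right of the circles of YTHDF1 KO for every gene shown, and IFNB1 is at 0 in WT and siARID1A.

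Promoter sequence is shown for IFIT1, ISG15 and IFI27 of the interferon-stimulated genes, and for IFIH1 of the sensing list above. All 4 hold a match, which not every gene of the interferon list does. The interferon-stimulated response element is a site known from promoters that answer to type I interferon. Many interferon-stimulated genes are known to be induced through it. GAAA, any 2 bases and GAAA again were searched for on either strand of the 250 bases before each start of a gene (RefSeq, GRCh38.p14). A gene with several starts counted if any of them had a match. Matches were found in 27 of the 43 interferon-stimulated genes tested that had a window (62.8%), against 1014 of 27305 genes with a window (3.71%). Overlapping matches were merged. The 130 bases before the first listed start of each gene follow, 5′ to 3′ on the gene's strand, for IFIT1 (chr10:89392493-89392622, plus strand), ISG15 (chr1:1013367-1013496, plus strand), IFI27 (chr14:94110606-94110735, plus strand) and IFIH1 (chr2:162318685-162318814, minus strand), with matches in capitals.
IFIT1: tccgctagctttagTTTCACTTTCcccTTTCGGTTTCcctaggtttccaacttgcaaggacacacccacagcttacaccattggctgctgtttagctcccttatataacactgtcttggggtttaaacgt
ISG15: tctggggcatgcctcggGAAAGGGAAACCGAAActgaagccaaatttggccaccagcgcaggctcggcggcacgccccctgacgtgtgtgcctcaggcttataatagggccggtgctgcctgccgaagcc
IFI27: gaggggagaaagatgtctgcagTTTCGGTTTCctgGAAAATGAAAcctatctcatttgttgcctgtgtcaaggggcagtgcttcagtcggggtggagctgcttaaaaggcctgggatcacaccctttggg
IFIH1: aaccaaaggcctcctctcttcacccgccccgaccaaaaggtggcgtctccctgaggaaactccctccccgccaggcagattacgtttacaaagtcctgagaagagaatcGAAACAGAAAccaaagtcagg
The match nearest the start ends 93 bases before it in IFIT1, 97 in ISG15, 85 in IFI27 and 11 in IFIH1. A match is a description of the letters and shows no binding, which was not measured.

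Secreted signals divided. Of 22 cytokines and chemokines tested, 10 rose and 3 fell (59.1% called, median 0.38). CCL5, a T cell chemokine, stood at 44.7, 45.9 and 43.9 CPM in YTHDF1 KO and 156, 133 and 122 CPM in the combined group (log2 1.61, SE 0.11, adjusted p = 5.47e-12). CXCL10 went from 4.97, 4.06 and 4.41 CPM to 11.1, 10.3 and 10.0 CPM (log2 1.22) and CXCL11 from 4.61, 5.37 and 4.55 CPM to 16.3, 12.3 and 13.9 CPM (log2 1.54). All 3 separated the groups, as did 43.7% of all genes tested. All 3 were near 0 in WT, with CXCL10 at 0 counts in every WT library. CXCL9, the remaining ligand of CXCR3, was below the expression filter, with 0 counts in every YTHDF1 KO library and 8, 12 and 10 in the combined group. In the opposite direction, CCL2, a monocyte chemokine, fell from 81.3, 83.3 and 81.1 CPM to 44.4, 37.9 and 41.6 CPM (log2 -0.99, SE 0.067), and IL11, a cytokine of the interleukin 6 family, from 22.4, 21.6 and 23.7 CPM to 11.2, 11.6 and 12.3 CPM (log2 -0.94). CXCL5, named after its value was seen, was the other that fell (-0.31).

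Of 23 NF-kB response genes, 7 rose and 3 fell (43.5% called), with a median of 0.12. TNFAIP3, the A20 feedback inhibitor, rose by 0.95, MAP3K8, a kinase upstream of ERK, by 1.04, and the subunit gene NFKB2 by 0.48, while TNFAIP2 fell (-0.50). Besides TNFAIP2, the list's falls were BCL3 (-0.30) and NFKB1 (-0.27), named after their values were seen, and 1 fell without combined replicate 1 or 3.

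Of 21 genes of antigen presentation on MHC class I tested, 16 were higher and 2 lower (85.7% called against 23.4% of all genes), with a median of 0.78. B2M, the invariant light chain, stood at 161, 174 and 164 CPM in YTHDF1 KO and 341, 325 and 319 CPM in the combined group (log2 0.98, SE 0.045, adjusted p = 5.01e-11). The heavy chain gene HLA-B went from 4.08, 4.04 and 3.09 CPM to 18.7, 16.2 and 18.3 CPM (log2 2.24). Reads of class I heavy chain genes, which are close paralogs, can be shared or split in counting, so the value is uncertain. NLRC5, the transactivator of class I genes, went from 7.8, 6.72 and 6.31 CPM to 23.6, 25 and 26.5 CPM (log2 1.85, SE 0.10, adjusted p = 4.37e-10). The groups did not overlap for any of these 3 genes, nor for 43.7% of all genes tested. The members that fell were the endoplasmic reticulum chaperones PDIA3 (-0.35) and CALR (-0.34, named after its value was seen), which also belong to the chaperone list below. NLRC5 hardly moved with silencing in WT (0.19, adjusted p = 0.327), and its difference between backgrounds was 1.66 (adjusted p = 2.67e-06). B2M rose by 0.23 in WT, a difference of 0.75 (adjusted p = 2.67e-06).

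Of 21 immune checkpoint ligands and related surface proteins tested, 8 rose and 1 fell (42.9% called), with a median of 0.05. CD274, which encodes PD-L1, was a low transcript, at 1.94, 1.89 and 2.36 CPM in YTHDF1 KO and 3.1, 3.91 and 3.68 CPM in the combined group (log2 0.80, SE 0.14, adjusted p = 0.0106). The groups did not overlap, but the call was lost without YTHDF1 KO replicate 2 (adjusted p = 0.0537) or combined replicate 2 (adjusted p = 0.0548) under the same edgeR test. CEACAM1, an adhesion protein of the carcinoembryonic antigen family, went from 2.46, 3.19 and 2.97 CPM to 14.7, 10.3 and 13.6 CPM (log2 2.16). CD24 rose by 0.44 and NECTIN2, a ligand of TIGIT, by 0.35, while PVR, another ligand of TIGIT, fell from 229, 224 and 232 CPM to 135, 168 and 157 CPM (log2 -0.57). PVR was the only fall in the list, and the list held 2 without WT replicate 2 and 3 in a fit of the 6 libraries alone.

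RNASEH1, which cuts the RNA of RNA-DNA hybrids, stood at 70.1, 64.8 and 65.7 CPM in YTHDF1 KO and 68.6, 69.4 and 68 CPM in the combined group. It did not pass the test (0.04, adjusted p = 0.752), and the groups overlapped. Of 40 R-loop processing factors, 1, THOC2 (0.20, named after its value was seen), rose, and 9 fell, among them the helicase DDX21 (-0.68), PARP1 (-0.36), the corepressor SIN3A (-0.34) and DDX1 (-0.26), with a median of -0.14. The share called in either direction was 25%, near the 23.4% of all genes, but most calls were falls, and 10.9% of all genes were lower. In WT 28 of the 40 fell and 1 rose, with a median of -0.36. The test of the difference passed for 14 members with a more positive response in the knockout, against 8.87% of all genes. In a fit of the 6 libraries alone 16 fell and 3 rose. The THOC2 call was lost without any 1 of the 6 libraries.

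Of 51 genes of the DNA damage checkpoint and repair, 2 rose and 10 fell, with a median of -0.07. The share called in either direction was 23.5%, near the 23.4% of all genes, but most calls were falls, and 10.9% of all genes were lower. In WT 30 of the 51 fell and 6 rose, with a median of -0.33. The test of the difference passed for 18 members with a more positive and 2 with a more negative response in the knockout. Over all genes these shares were 8.87% and 8.22%. XRCC5, the Ku80 subunit that binds DNA ends, went from 344, 349.9 and 356 CPM to 107, 137 and 120.0 CPM (log2 -1.53, SE 0.10, adjusted p = 1.64e-12). CLSPN, an adaptor of the replication checkpoint, fell by 0.48 and FANCC, of the Fanconi core complex, by 0.45, while CHEK2, a checkpoint kinase, rose by 0.45. ATM (0.22), named after its value was seen, was the other rise. The count of falls was 5 without YTHDF1 KO replicate 1 or combined replicate 1 and 6 without YTHDF1 KO replicate 3, and that of rises was 1 without YTHDF1 KO replicate 2 or 3 or without any combined replicate. Scaling by library totals gave 6 falls, and a fit of the 6 libraries alone 5 rises.

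Of 36 p53 target genes tested, 19 were higher and 1 lower (55.6% called against 23.4% of all genes), with a median of 0.33. CDKN1A, the p21 inhibitor of cyclin-dependent kinases, stood at 175, 176 and 176 CPM in YTHDF1 KO and 233, 221 and 225 CPM in the combined group (log2 0.36, SE 0.023, adjusted p = 0.000354). MDM2, the ligase that degrades p53, went from 126, 118 and 118 CPM to 200.5, 164 and 201.5 CPM (log2 0.64), and CCNG1 rose by 0.76, BTG1 by 0.60 and TP53INP1 by 1.07. For CDKN1A and MDM2 the rise was smaller than with YTHDF1 intact. CDKN1A rose by 1.54 in WT, from 159, 156 and 159.5 CPM to 409, 482 and 486 CPM, a difference of -1.17 (adjusted p = 6.81e-09), and MDM2 by 1.59, a difference of -0.94 (adjusted p = 2.4e-06). Over the list the WT median was 0.92, and 26 of 36 members passed the test of the difference with a smaller or more negative response in the knockout, against 8.22% of all genes. TNFRSF10A (-0.39), named after its value was seen, was the member that fell, and 2 fell without YTHDF1 KO replicate 1 or WT replicate 2 and 4 in a fit of the 6 libraries alone.

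Of 47 G2/M and mitosis genes, 26 fell and 1, CDC25A (0.36, named after its value was seen, and not called without YTHDF1 KO replicate 1 or 3 or combined replicate 3), rose, with a median of -0.22. Called genes were 57.4% of the list against 23.4% of all genes, where 10.9% were lower. CDC25B, a phosphatase that activates mitotic kinase complexes, went from 623, 632 and 614 CPM to 261, 302 and 263 CPM (log2 -1.18, SE 0.070, adjusted p = 2.79e-11). The other members that were named moved less, with the spindle protein TPX2 at -0.39, the kinesin KIF14 at -0.40 and the cytokinesis protein ANLN at -0.33. The number of falls depended on the libraries and the scaling: 12 were called without combined replicate 1, 15 without YTHDF1 KO replicate 1 or 3, 16 without YTHDF1 KO replicate 2 or combined replicate 3, and 17 with library totals as the scaling. With YTHDF1 intact 44 of the 47 fell, with a median of -0.59. The test of the difference passed for 25 members with a smaller fall or a rise in the knockout. Positive differences passed for 8.87% of all genes.

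Of 53 genes of DNA replication and S phase, 13 fell and 1, ORC1 (0.27, named after its value was seen), rose, with a median of -0.14. Called genes were 26.4% of the list against 23.4% of all genes, where 10.9% were lower. SLBP, which binds the stem-loop of replication-dependent histone transcripts, went from 64.2, 69.5 and 65.8 CPM to 29.3, 30.0 and 30.2 CPM (log2 -1.16, SE 0.036, adjusted p = 1.79e-11). UHRF1, the partner of the maintenance DNA methyltransferase, fell by 0.70, and the polymerase subunits POLD1 and POLA1 by 0.45 and 0.29 on the log2 scale. The count of falls was 6 without combined replicate 1 or 3, 7 without YTHDF1 KO replicate 2, 8 without YTHDF1 KO replicate 3 or with library totals, and 23 in a fit of the 6 libraries alone, and the ORC1 call was lost without any 1 of the 6. In WT 43 fell, with a median of -0.51. The test of the difference passed for 26 members with a smaller fall or a rise in the knockout. Positive differences passed for 8.87% of all genes. Replication-dependent histone genes rose in 10 of 18 cases and fell in 0 by edgeR (0 also at an unadjusted p under 0.05 and by DESeq2), with a median of 0.55. Calls made up 55.6% of the histone list. The linker histone H1-2 went from 13.8, 14.3 and 14.8 CPM to 32.5, 26.4 and 24.3 CPM (log2 0.95), and H2AC6, H2BC12 and H4C8 rose by 0.72, 0.56 and 0.73. Without YTHDF1 KO replicate 2 or combined replicate 3, 6 rose. Histone genes are near-identical copies, so counts of single members are uncertain.

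Genes of epithelial character and adhesion moved in both directions. Of 31 genes linked to the epithelial to mesenchymal transition, 5 rose and 11 fell (51.6% called, median -0.19). CDH1, which encodes E-cadherin of epithelial junctions, stood at 39.5, 40.8 and 44.5 CPM in YTHDF1 KO and 108, 110.1 and 109.5 CPM in the combined group (log2 1.39, SE 0.052, adjusted p = 1.17e-12). Its partner at the junction, CTNNB1, which encodes beta-catenin, went the other way, from 302, 320.0 and 308 CPM to 101, 122 and 107 CPM (log2 -1.50, SE 0.084, adjusted p = 2.38e-12). MMP2, a gelatinase, fell from 3.27, 4.13 and 4.21 CPM to 0.502, 1.19 and 0.806 CPM (log2 -2.18). The rises, the last 3 of them named after their values were seen, were CDH1, ACTA2, EPCAM (1.06), LOX (0.70) and ZEB2 (0.39), so members of both the epithelial and the mesenchymal side rose. Without YTHDF1 KO replicate 1 or 2, 3 rose. CDH1 averaged 104 ± 2.42 CPM in WT and 170.5 ± 15.4 in siARID1A, so its level was near that of WT in the combined group, and the difference in response was 0.68 (adjusted p = 3.18e-05).

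Of 30 keratins, mucins and tight junction proteins, 8 rose and 3 fell (36.7% called, median 0.29, and 0.15 without YTHDF1 KO replicate 3). KRT80, a type II keratin, was the largest fall under the naming rule, from 76.1, 74.2 and 78.3 CPM to 9.94, 18.4 and 14 CPM (log2 -2.42, SE 0.26, adjusted p = 1.33e-05), and it fell alike in WT (-2.58). The transmembrane mucin MUC13 went from 22, 20.9 and 17.4 CPM to 87.5, 85 and 92.7 CPM (log2 2.14), and the junction proteins F11R and TJP3 rose by 0.46 and 1.32. OCLN (-0.38) and KRT81 (-0.36), named after their values were seen, completed the falls.

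Of 41 extracellular matrix genes, 18 rose and 8 fell (63.4% called, median 0.20, and 0.33 without combined replicate 1). The rises named were basement membrane genes. NID2, a nidogen, went from 10.8, 9.65 and 10.2 CPM to 29.2, 32.6 and 37.1 CPM (log2 1.69), COL4A1, a chain of type IV collagen, from 98.7, 93.9 and 93.8 CPM to 199, 206 and 219 CPM (log2 1.13), and LAMA4, a laminin chain, rose by 0.92. THBS1, a matricellular glycoprotein, went from 205, 204 and 213 CPM to 118, 131 and 131 CPM (log2 -0.71). Of 18 integrin subunits, 4 rose and 4 fell (44.4% called, median 0.01). ITGB8 and ITGA10 rose by 1.09 and 0.80, and so did ITGA7 (0.68) and ITGA1 (0.60), both named after their values were seen. ITGA3, which pairs with the beta 1 chain to bind laminins, went from 1488, 1414 and 1449 CPM to 938, 1099.8 and 1036 CPM (log2 -0.50), ITGAV fell by 0.46, and the other falls, also named after their values were seen, were ITGA4 (-0.47) and ITGB4 (-0.25). Without YTHDF1 KO replicate 1 or 2 or combined replicate 1, or with library totals, 2 integrins fell, and the list's median turned to -0.01 without YTHDF1 KO replicate 1.

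Growth signalling genes changed in part. Of 30 AP-1 and immediate early genes, 9 rose and 3 fell (40% called, median 0.08). JUN went from 84.5, 82.3 and 90.5 CPM to 43.4, 47.3 and 46.2 CPM (log2 -0.91, SE 0.056), while JUNB rose by 0.35, the small Maf protein MAFK by 0.42 and the ERK phosphatase DUSP5 by 1.08. The other falls, named after their values were seen, were SPRY4 (-0.33) and MYC (-0.29), and 8 fell in a fit of the 6 libraries alone. Of 25 Hippo-YAP target genes, 3 rose and 9 fell (48% called, median -0.13). The receptor kinase AXL went from 379, 387 and 378 CPM to 212, 239 and 246 CPM (log2 -0.72), CCN1, a secreted matricellular protein, fell by 0.50 and the phosphatase PTPN14 by 0.50, while AMOTL1, a YAP-binding angiomotin, rose by 0.68. TEAD4 (0.25) and LATS2 (0.24), named after their values were seen, also rose, and 1 rise was called without YTHDF1 KO replicate 2 or 3 or combined replicate 2 or 3.

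Of 13 genes of the EGF receptor family and its ligands, 4 rose and 4 fell (61.5% called). The median was -0.17, and -0.28 without YTHDF1 KO replicate 3. The ligand EREG (epiregulin) went from 276, 263 and 265 CPM to 141, 121 and 141 CPM (log2 -0.995), whereas it rose by 0.84 in WT, a difference of -1.84 (adjusted p = 1.27e-05). The receptor EGFR fell from 582, 504 and 549.5 CPM to 369.6, 426 and 445 CPM (log2 -0.40), NRG1 fell by 0.29 and ERBB2 rose by 0.33. TGFA (-0.40) also fell, and NRG4 (0.69), HBEGF (0.50) and ERBB3 (0.46) also rose, all 4 named after their values were seen. The rises numbered 2 without YTHDF1 KO replicate 1 or 3 or combined replicate 1, and 1 without combined replicate 3.

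Of 31 coagulation and complement genes, 13 rose and 7 fell (64.5% called, median 0.32). CD55, which protects cells from complement, stood at 127, 134 and 128 CPM in YTHDF1 KO and 472, 385 and 411 CPM in the combined group (log2 1.70, SE 0.090, adjusted p = 4.43e-12). C1R and C1S, the proteases of the first complement component, rose by 1.75 and 1.22, and FGA, the fibrinogen alpha chain, went from 3.27, 3.96 and 4.18 CPM to 18.8, 13.3 and 13.3 CPM (log2 1.99). Of 20 alveolar epithelial and endodermal lineage genes, 6 rose and 2 fell (40% called, median 0.11). FOXA1, a pioneer factor of endoderm, went from 5.91, 5.27 and 6.09 CPM to 11.2, 14 and 15 CPM (log2 1.22), TM4SF1 rose by 0.70, and LAMP3, a lamellar body protein that is also interferon-induced and stands in that list too, rose by 2.702. CAV1 (-0.51) and FOXA2 (-0.39), named after their values were seen, were the falls.

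Of 33 genes of the integrated stress response and amino acid supply, 16 fell and 3 rose (57.6% called), with a median of -0.28. MTHFD2, a mitochondrial folate enzyme, stood at 223, 237 and 225 CPM in YTHDF1 KO and 116, 129 and 116 CPM in the combined group (log2 -0.92, SE 0.059, adjusted p = 5.42e-08). PSAT1, of serine synthesis, went from 467, 499 and 478 CPM to 276, 303 and 278 CPM (log2 -0.75), PYCR1, of proline synthesis, fell by 0.81 and the neutral amino acid carrier SLC1A4 by 0.81 on the log2 scale. PPP1R15A (1.18), NUPR1 (0.54) and SLC3A2 (0.24), named after their values were seen, rose, and 1 rose without combined replicate 1. PSAT1 fell by 1.89 in WT, more than in the knockout (difference 1.14, adjusted p = 4.63e-08). Of 20 aminoacyl-tRNA synthetases, which charge tRNAs, 14 fell and 1 rose (75% called, median -0.26), and 9 fell without YTHDF1 KO replicate 3. VARS1 went from 162, 168 and 162 CPM to 119, 118 and 121 CPM (log2 -0.46), and IARS1 and YARS1 fell by 0.41 and 0.41. WARS1, the tryptophan enzyme and known to be interferon-induced, was the member that rose, from 177, 185 and 179.7 CPM to 251, 227 and 231 CPM (log2 0.39), and it fell in WT (-0.66), a difference of 1.05 (adjusted p = 2.41e-08). TGATGNAA, the core of the amino acid response element bound by ATF4, was searched for on either strand of the 250 bases before any start of a gene. It was found in 6 of 28 stress response genes with a window (21.4%) and 3 of 16 synthetases (18.8%), against 1061 of 27305 genes (3.89%).

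Of 30 endoplasmic reticulum chaperone genes, 11 fell and 2 rose (43.3% called, median -0.11), and 6 fell without YTHDF1 KO replicate 2. The disulfide isomerase PDIA6 went from 388, 416 and 414 CPM to 171, 219 and 196 CPM (log2 -1.06, SE 0.11), and HYOU1, PDIA4 and PDIA3 fell by 0.39, 0.36 and 0.35. DNAJB9 (0.50) and ERN1 (0.45), named after their values were seen, rose, and 4 rose in a fit of the 6 libraries alone. Of 21 heat shock genes, 3 rose and 4 fell (33.3% called, median -0.07). DNAJB4, a cochaperone, went from 24.7, 28.2 and 26 CPM to 57.4, 46 and 53.2 CPM (log2 0.99), CRYAB, a small heat shock protein, rose by 1.58 from 0.448 CPM, the factor HSF2 rose by 0.45, and the collagen chaperone SERPINH1 fell by 0.34. The other falls, named after their values were seen, were HSP90AA1 (-0.29), BAG3 (-0.22) and HSPD1 (-0.20). Only 1 fell without YTHDF1 KO replicate 2 or combined replicate 1, the latter without SERPINH1, and 2 fell without any other 1 of the 6 libraries or with library totals, whereas 8 fell in a fit of the 6 libraries alone.

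Of 38 NRF2 target genes tested, 9 were higher and 2 lower (28.9% called against 23.4% of all genes, median 0.08). GPX2, a glutathione peroxidase, was the largest rise under the naming rule, from 40.1, 38.3 and 40.9 CPM in YTHDF1 KO to 394, 272 and 316 CPM in the combined group (log2 3.04, SE 0.16, adjusted p = 6.05e-06). Its WT libraries stood at 349.7, 244 and 388 CPM, so the combined libraries overlapped those of WT, and those of YTHDF1 KO lay below both. HMOX1, heme oxygenase 1, went from 276, 301 and 288 CPM to 829, 683 and 789.7 CPM (log2 1.41, SE 0.091), less than its rise of 2.61 in WT (difference -1.20, adjusted p = 3.27e-07). The aldo-keto reductases AKR1C2 and AKR1C3 rose by 0.60 and 0.56, and their close sequence similarity makes the split between them uncertain. ALDH3A1 (-0.28), named after its value was seen, was among those that fell, and 1 fell without YTHDF1 KO replicate 2 or combined replicate 3. The rises numbered 14 without WT replicate 2, 15 with library totals and 17 in a fit of the 6 libraries alone, where 5 fell.

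Of 34 genes of cholesterol and fatty acid synthesis and uptake, 4 rose and 4 fell (median 0.01, and -0.01 without combined replicate 2). Calls made up 23.5% of the list, near the 23.4% of all genes. ACLY, which makes cytosolic acetyl-CoA, went from 1247, 1209.5 and 1239 CPM to 787, 935 and 897 CPM (log2 -0.50), while the desaturase SCD rose by 0.39. STARD4 (0.31) and INSIG1 (0.21) also rose and FASN (-0.29) and LSS (-0.28) also fell, named after their values were seen. The falls numbered 2 without any 1 YTHDF1 KO replicate, without combined replicate 1 or with library totals, which called 7 rises, and a fit of the 6 libraries alone called 8. Of 37 genes of hypoxia and glycolysis, 7 rose and 9 fell (43.2% called), and the median (-0.03) turned to 0.01 under scaling by library totals. The glucose carrier SLC2A3 went from 133, 136 and 141 CPM to 299, 297 and 296 CPM (log2 1.12), NDRG1 and P4HA2 rose by 0.61 and 0.55, and the peptide hormone ADM fell by 0.36. The falls numbered 5 without YTHDF1 KO replicate 1 or 2 or combined replicate 1 or 3, and 4 without YTHDF1 KO replicate 3, where the rises were also 4. In a fit of the 6 libraries alone 11 rose.

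Of 39 lysosome and autophagy genes, 15 rose and 3 fell (46.2% called, median 0.17). The protease cathepsin L, encoded by CTSL, went from 302, 334 and 332 CPM to 809, 690.3 and 722 CPM (log2 1.20, SE 0.083, adjusted p = 2.35e-11). CTSS, cathepsin S of antigen processing, rose by 0.88, GABARAPL1, a membrane-bound autophagy protein, by 1.22, and the lipase LIPA by 0.48. ULK1 (-0.43), ATG7 (-0.30) and TFE3 (-0.24), named after their values were seen, fell. Without YTHDF1 KO replicate 1 there were 8 rises and 0 falls, without combined replicate 1 there were 9 and 0, and without YTHDF1 KO replicate 3 there were 9 rises. There was 1 fall without YTHDF1 KO replicate 2, without combined replicate 3 or with library totals.

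The translation and respiration machinery held few calls. Of 76 cytosolic ribosomal protein genes 0 rose and 0 fell by edgeR (median 0.07), with 1 rise and 1 fall at an unadjusted p under 0.05 and 1 fall by DESeq2. Of 53 nuclear-encoded oxidative phosphorylation genes 0 rose by edgeR (0 also at an unadjusted p under 0.05 and by DESeq2) and 3 fell: ATP5MC1 (-0.44), SDHB (-0.32) and NDUFV1 (-0.24). Of 13 mitochondrially encoded transcripts 0 rose and 0 fell by edgeR (0 in either direction also at an unadjusted p under 0.05 and by DESeq2), with a median of -0.18. These low counts depended on WT replicate 2, which belongs to neither group. Without it, 12 ribosomal protein genes rose and 3 fell, 1 oxidative phosphorylation gene rose and 5 fell, and 10 mitochondrially encoded transcripts fell. In a fit of the 6 libraries alone the counts were 17 and 3, 4 and 5, and 10 transcripts that fell. Without YTHDF1 KO replicate 2 or combined replicate 3, 1 oxidative phosphorylation gene fell, with neither SDHB nor NDUFV1 called.

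**Figure D4:**
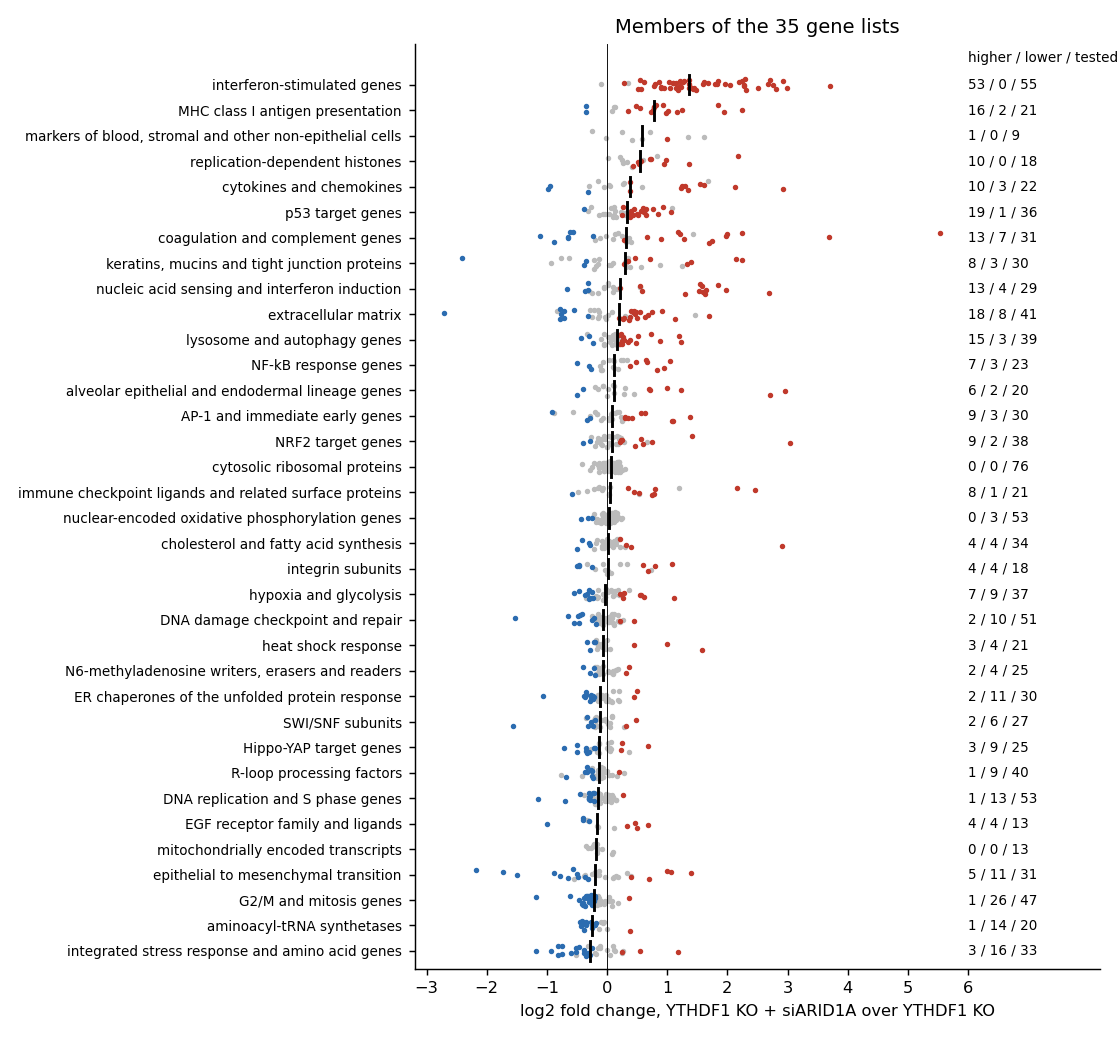
Log2 fold change of the combined group over YTHDF1 KO for every tested member of the 35 gene lists, ordered by median (black bar), with members called higher in red, called lower in blue and the others in grey, and the counts higher, lower and tested at the right. The interferon-stimulated genes have the highest median (1.36), the integrated stress response and amino acid genes the lowest (-0.28).

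The largest changes under the naming rule, which asked for 10 CPM or more over the 6 libraries, a call and no overlap, follow. The 12 largest rises included GPX2, CMPK2, MX1, TRIM22 and IFI44L, given above, and CTH, cystathionine gamma-lyase of cysteine synthesis, at 2.35, 2.97 and 2.97 CPM in YTHDF1 KO and 28.1, 19.7 and 20.4 CPM in the combined group (log2 3.03, SE 0.20, adjusted p = 1.03e-05). TM4SF4, a tetraspanin-like membrane protein, went from 2.25, 2.76 and 2.69 CPM to 23.1, 19.2 and 18 CPM (log2 2.96), and its relative TM4SF20 from 8.79, 8.22 and 8.92 CPM to 50.7, 39.2 and 45.4 CPM (log2 2.38). CP, the copper-carrying ferroxidase ceruloplasmin, rose by 2.71, PLEKHA4 by 2.58 and PLAAT4, a phospholipid-modifying enzyme, by 2.45. TM4SF4 averaged 64.2 ± 8.19 CPM in WT and 152 ± 19.9 in siARID1A, and TM4SF20 62.6 ± 12.3 and 174 ± 43.1. For both, YTHDF1 KO was the lowest of the 4 groups, and every combined library stayed below every WT library.

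Of the 12 largest falls, KRT80, ARID1A, XRCC5 and CTNNB1 are given above. NIPAL4, a magnesium transporter, went from 18.2, 20.1 and 18.6 CPM to 4.83, 7.03 and 5.57 CPM (log2 -1.70, SE 0.16), and NPR3, the clearance receptor of natriuretic peptides, from 16, 16 and 15.1 CPM to 4.99, 6.56 and 5.24 CPM (log2 -1.48). HMGA2, an architectural chromatin protein of embryonic tissue and tumours, went from 81.5, 83.6 and 79.6 CPM to 28.2, 31.8 and 31.3 CPM (log2 -1.42, SE 0.059, adjusted p = 1.62e-11). MIR503HG, a long noncoding RNA that hosts a microRNA gene, fell by 1.46, the chloride transporter CLCN4 by 1.33, the potassium channel KCNMA1 by 1.28, the receptor kinase EPHB2 by 1.21 and the oxytocin receptor OXTR by 1.20 on the log2 scale. XRCC5 and CTNNB1 fell in both backgrounds, with log2 changes of -2.01 and -1.79 in WT, where ARID1A was at -1.95. HMGA2 and OXTR, in contrast, rose with silencing in WT (0.47 and 1.05), with differences of -1.89 (adjusted p = 5.23e-10) and -2.25 (adjusted p = 2.21e-09).

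Some transcripts were detected in 1 of the compared groups only, and the 4 highest in each direction are given. Where a group was at 0, a floor of 3 counts over its libraries was used. ALPL, the tissue-nonspecific alkaline phosphatase, was at least 16.4-fold higher in the combined group (12, 28 and 10 counts), COL9A2 at least 15.1-fold (6, 10 and 30), LINC00319 at least 10.4-fold (10, 2 and 18) and CXCL9 at least 10.0-fold. In the other direction, the combined group had 0 counts of DHX35-DT, KLF14, MFAP2 and PPP1R21-DT, which were at least 8.09-, 7.96-, 6.77- and 6.69-fold lower. Their counts in YTHDF1 KO were 13, 3 and 8 for DHX35-DT, 8, 8 and 8 for KLF14, 1, 14 and 6 for MFAP2 and 10, 4 and 6 for PPP1R21-DT. All 8 are near the limit of detection, and CXCL9, DHX35-DT, KLF14 and MFAP2 were below the filter and not tested. Floors cover counting error only.

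ARID1A silencing in cells with intact YTHDF1 gave more calls, from libraries that the comparison above does not share. The ARID1A transcript also fell further there, by 1.95 against 1.57 on the log2 scale. The degree of silencing and YTHDF1 status therefore cannot be told apart in the values that follow. There 8368 of the 18524 genes (45.2%) were called, 4100 (22.1%) higher and 4268 (23%) lower. The SD of the log2 changes over all genes was 0.621 in the knockout and 0.914 in WT, and the median absolute change 0.23 and 0.37. Of the 2315 genes that rose in the knockout, 1547 (66.8%) also rose in WT, which is 37.7% of the WT rises, and 101 fell there. Of the 2016 that fell in the knockout, 1458 (72.3%) also fell in WT, 34.2% of the WT falls, and 100 rose. A further 667 rises and 458 falls of the knockout were not called in WT, and 2453 rises and 2709 falls of WT were not called in the knockout. As a description across genes, which are not independent replicates, the log2 changes correlated with Pearson's r of 0.473 and Spearman's rho of 0.514.

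The difference itself was tested as an interaction, the log2 change in the knockout minus that in WT. It passed for 3166 genes (17.1%), positive for 1643 (8.87%) and negative for 1523 (8.22%). The most negative values under the naming rule were of genes that silencing raised steeply in WT and less, or not detectably, in the knockout. ANKRD1, a muscle ankyrin repeat protein and YAP target, averaged 2.46 ± 0.536 CPM in WT and 29.1 ± 9.35 in siARID1A, but stood at 5.84, 6.77 and 4.71 CPM in YTHDF1 KO and 5.77, 5.6 and 6.62 CPM in the combined group (difference -3.52, adjusted p = 7.86e-08). PTGS2, which encodes cyclooxygenase 2, averaged 13.2 ± 2.93 and 257 ± 78.4 CPM in WT and siARID1A, and went from 165, 166 and 170.2 CPM in YTHDF1 KO to 509.8, 402 and 461 CPM in the combined group. It therefore rose in both backgrounds, by 4.30 and 1.45, with a difference of -2.84 (adjusted p = 8.75e-05). FGFBP1, a carrier of fibroblast growth factors, and MYPN, a sarcomere protein, rose in both, with differences of -2.96 and -2.89.

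The most positive values were of genes whose transcript fell in WT and was already low in the knockout. FER1L6, a ferlin family gene, averaged 83.9 ± 2.81 CPM in WT and 0.272 ± 0.0734 in siARID1A, but 0.193 ± 0.088 and 0.243 ± 0.134 CPM in the knockout groups, a difference of 8.65 (adjusted p = 1.91e-10). NTRK3, a neurotrophin receptor, averaged 224 ± 26 and 33.4 ± 10.0 CPM and then 1.81 ± 0.313 and 1.87 ± 0.709 CPM (difference 2.81), and PKDCC, a secreted kinase, 106 ± 18.8 and 15.8 ± 0.798 CPM and then 2.94 ± 0.377 and 3.48 ± 0.68 CPM (difference 2.98). TINAGL1, a matrix glycoprotein, fell in both backgrounds, by 2.81 and 0.41 on the log2 scale, with a difference of 2.39. Its call in the knockout was lost without YTHDF1 KO replicate 1 or combined replicate 1. ASS1, argininosuccinate synthase, fell in WT from 38.4, 28.3 and 38.8 CPM to 10.0, 8.39 and 10.4 CPM and rose in the knockout from 6.67, 6.58 and 5.16 CPM to 9.44, 9.75 and 10.8 CPM, a difference of 2.57 (adjusted p = 8.46e-10). These levels show that a positive value did not always mean a rise in the knockout: FER1L6, NTRK3 and PKDCC passed no test there (0.40, 0.06 and 0.23).

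**Figure D5:**
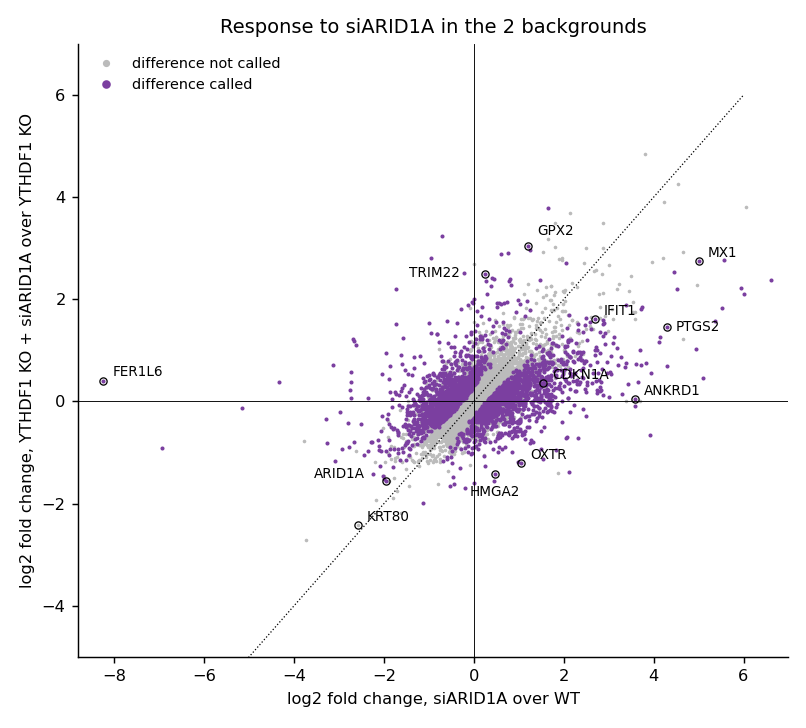
Log2 fold change with siARID1A in YTHDF1 KO cells (vertical) against that in WT cells (horizontal), 1 point per gene for the 13925 tested genes that averaged 1 CPM or more in the 12 libraries. Genes whose difference was called are purple, the dotted line marks equal change, MX1 and ANKRD1 lie below it and TRIM22 and GPX2 above.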

How the data were processed

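RNA was measured in 12 libraries, 4 groups of 3, mapped to groups by the genotype label. Stranded libraries were made from total RNA per the labels' protocols. Per the submitters' processing notes, GRCh38 was the build and the tools were edgeR 3.32.1, featureCounts 2.0.1, Trim Galore 0.6.6 and STAR 2.7.0d; the annotation release and strand setting are not given in the sources used here, so overlapping genes, antisense partners and close paralogs are uncertain. The authors deposited 1 table of raw counts per gene, used as deposited, with 60617 genes. Library totals ran from 30220717 to 45042635 counts, and low counts were more often even (68.2% to 72% of counts from 1 to 20).

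All libraries entered 1 fit in R 4.3.3 with edgeR 4.0.16: filterByExpr (18524 genes tested), TMM factors, robust quasi-likelihood tests, two-sided, with Benjamini-Hochberg adjustment over all genes tested and a threshold of 0.05. Biological variation came to 9.44% (common dispersion 0.0089). Scripts were tested on simulated data. The comparisons were the combined group against YTHDF1 KO, siARID1A against WT and their difference. Standard errors come from replicate SDs of log2 CPM with a prior count of 2. Symbols came from a gene name table, positions from GENCODE 29 and promoters from RefSeq. Alternatives were RLE factors, library totals, no filter, DESeq2 1.42.0, the 6 libraries alone, a replicate block, each library left out, and, chosen after seeing the data, counts halved and rounded. Members and the 35 lists (1188 genes, 1187 matched) were chosen with earlier results of these data known.

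Named genes were ARID1A, YTHDF1 and relatives, genes of the series title, the 12 largest rises and falls with at least 10 CPM, a call and no overlap, the 4 highest genes at 0 in either group, up to 4 called members of each list with the smallest p, and the 5 largest interactions in each direction. A member named outside this rule is said to be. Results of some genes are not reported here.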

Additional observations from a re-analysis of the deposited data

Results flagged for a closer look

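A difference between backgrounds, tested as the interaction of silencing and YTHDF1 status with edgeR and adjusted over all 18524 genes, was found for 3166 genes. Values below are differences in log2 response, knockout minus WT, for the targets, the genes with the largest changes and those whose difference is given in the text. Other described genes also passed.

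Among interferon and antigen presentation genes the log2 response was smaller in the knockout for MX1 (-2.26), OAS2 (-2.32) and IFIT1 (-1.08) and larger for TRIM22 (2.25), NLRC5 (1.66), RIGI (1.06) and B2M (0.75). A smaller log2 response was not a smaller rise in CPM for IFIT1. It averaged 1.9 CPM in WT and 12.2 in siARID1A, against 159 in YTHDF1 KO and 487 in the combined group. MX1 was likewise near 0 in WT. CGAS (-4.24, adjusted p = 0.048) rests on at most 32 counts per library. WARS1 fell in WT and rose in the knockout (1.05).

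Among stress and growth genes the response was smaller or opposite in the knockout for ANKRD1 (-3.52), FGFBP1 (-2.96), MYPN (-2.89), PTGS2 (-2.84), OXTR (-2.25), HMGA2 (-1.89) and EREG (-1.84). OXTR, HMGA2 and EREG rose in WT and fell in the knockout. CDKN1A (-1.17), HMOX1 (-1.20) and MDM2 (-0.94) rose in both backgrounds, less in the knockout. NPR3 (-1.02) fell more in the knockout, and NIPAL4 (-1.51) fell there and was not called in WT.

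Positive differences were found for FER1L6 (8.65), PKDCC (2.98), NTRK3 (2.81), ASS1 (2.57) and TINAGL1 (2.39). The rise was larger in the knockout for GPX2 (1.82), TM4SF4 (1.72), TM4SF20 (0.91), CDH1 (0.68) and CP (0.67). The fall was smaller in the knockout for PSAT1 (1.14), MIR503HG (0.56), KCNMA1 (0.51), XRCC5 (0.48) and ARID1A (0.38).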

How the results depend on the processing

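The count of genes called in the combined group against YTHDF1 KO (4331) ranged, with all libraries of the comparison kept, from 4070 with library totals to 5912 with the 6 libraries alone, with 4351 under RLE factors, 4220 without a filter, 4408 by DESeq2 and 4454 with counts halved. Leaving out 1 library of the 2 groups or WT replicate 2 gave 3065 to 5093 calls, 1736 to 2600 rises and 1303 to 2493 falls. The interaction count (3166) ran from 2498 to 3253.

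Replicate numbers gave no uniform pairing: deviations of same-numbered libraries from their group means correlated at -0.43, 0.02 and 0.36. Not every library correlated best with its own number. YTHDF1 KO replicate 2 stood at 0.54 with combined replicate 1 and at -0.64 with combined replicate 3. Deviations from a mean of 3 libraries are not free of each other, so these values cannot exclude pairing or a shared batch. A replicate block gave 4197 calls and 2979 interactions.

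Among named genes, 4 that were not called changed sign when 1 library was left out, with log2 changes over these settings of NTRK3 (-0.2783 to 0.3241), ANKRD1 (-0.0729 to 0.1834), CGAS (-0.8561 to 0.7658) and ARID2 (-0.0629 to 0.0984). Calls of IGF2BP2, SDHB, CD274, TINAGL1, SERPINH1 and NDUFV1 were lost under at least 1 of the settings, and the cause was not tested. The log2 change of ARID1A ran from -1.62 to -1.47 over all settings. CGAS is limited by its few counts.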

Other observations

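Several list members outside the naming rule, chosen after their values were seen, showed log2 changes above 1 in size. Fibrinogen beta and gamma chains, FGB and FGG, rose with FGA, by 3.68 (SE 0.80, 0.512 to 6.55 CPM) and 2.24 (SE 0.69, 0.102 to 0.499 CPM). IFITM1, an interferon-induced membrane protein that blocks virus entry, rose by 3.70 (SE 0.24, 0.243 to 3.21 CPM), TNFSF10, which encodes the death ligand TRAIL, by 2.92 (SE 0.47, 0.421 to 3.26 CPM), and IL6 by 2.13 (SE 0.20, 0.902 to 3.99 CPM). PLAU, the urokinase gene, fell by 1.11 on the log2 scale (SE 0.12, 59.3 to 27.3 CPM). Each separated the 3 libraries of the combined group from the 3 of YTHDF1 KO, as did 43.7% of all genes tested. Because these genes were chosen for large changes, the separation adds no support. FGG, at 0.102 CPM in YTHDF1 KO, rests on few counts.

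Counts from 1 to 20 were even in 68.2% to 72% of cases in the 12 libraries, where equal shares of odd and even would be usual. Halving and rounding the counts called 4454 genes in place of 4331, and 4236 were called both ways.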
